A study of Populus tomentosa with 4 samples.

Results

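The small RNAs described here are 28 distinct sequences of 24 nt that the authors' table lists under a running number and an arm, with no family name. They were taken from the 107 distinct sequences of the table by 2 criteria, a name formed from a running number and a length of 24 bases, and each sequence was counted once. The 28 sequences carry 38 of the 193 names in the table. Each is called here by its number and arm (m2141-5p, for example), without the prefix that the table puts before the number.

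The series profiled small RNA of Populus tomentosa, the Chinese white poplar, in shoot tips (SAM in the labels) and in the leaves around them. Both tissues came from the same kind of material, healthy mature trees grown outdoors, with no treatment or transgene in either group. There were 2 libraries per tissue and 4 in all, and the labels leave unsaid whether separate trees gave the libraries of a tissue, so the authors' adjusted p (FDR) may measure technical spread alone. The table gives 1 pooled value per tissue, a normalized read abundance whose scale is not stated, together with the log2 fold change (positive where shoot tips were higher), the FDR and the predicted target loci. No messenger RNA was measured, so the tissue labels could not be set against marker genes, and in such whole-tissue samples fewer cells of a type and less RNA per cell cannot be told apart.

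In plants, small RNAs of 24 nt are mostly small interfering RNAs. In Arabidopsis they are cut by the Dicer-like enzyme DCL3 from double-stranded RNA that starts with RNA polymerase IV, and they are bound by AGO4 and its relatives, which prefer a 5′ adenine. They are known for guiding DNA methylation to transposons and other repeats. True microRNAs of plants are usually shorter, start with uridine and are cut by DCL1 from a hairpin, although longer microRNAs made by DCL3 have been described in rice. The arm in a name (5p or 3p) gives the side of the predicted hairpin from which a sequence comes.

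The sequences the tissue comparison turns on are those higher in leaves and those found in both tissues, since the remaining ones differ little in value from each other. They are printed as in the table, as DNA letters from 5′ to 3′, with bases 2 to 8, the seed, in capitals (plant microRNAs are known to pair with targets over nearly their whole length). The 5 sequences higher in leaves were these.
m1464-5p: aCCTGATTggtctgaattgtaaat
m0131-5p: aTTCTGACacgtggctacatcata
m0071-3p: aTAGTCAActcccctgcggtcacc
m1472-5p: aCCGTTAGtgacatttcttggtgt
m1580-3p: aAGTTGAGtgttgattgtctctta

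The 5 sequences higher in shoot tips that were also above 0 in leaves were these.
m2141-5p: tGGAGCATgcctccactgttcatg
m2619-3p: aGAGGGCTtcgcgtatggattatg
m1788-5p: gTGTGTTTgagttctggaattacc
m1666-3p: gGCTTCGTtgggctgtagcctagg
m2221-5p: aAAGCGCAttttgtgggctcaggt

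A further pair is shown because its predicted targets include most of the transposase-like loci described further on.
m0661-3p: tAAACGTGggtctggcaaactgcc
m2175-5p: tAACGTGAtggcaaagagcttgag

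An adenine stood first in 19 of the 28 sequences (67.9%), thymine in 6, guanine in 3 and cytosine in 0. All 5 sequences higher in leaves began with adenine, as did 14 of the 23 higher in shoot tips. By comparison, 3 of the 27 numbered sequences of 20 to 23 nt (11.1%) and 6 of the 52 sequences of known families (11.5%) began with adenine, while 55.6% and 75% of them began with thymine. These shares are descriptions of the listed sequences and their difference was not tested. The GC content of the 24-nt sequences ran from 29.2% in m2460-5p to 75% in m0726-3p, with a median of 45.8%, against 47.6% over all 107 sequences.

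The 28 sequences were nearly all unrelated to each other. They had 27 different seeds, and 1 seed was shared, by m1702-3p and m1831-5p. None of these seeds occurred in another listed sequence. Among the 378 pairs of 24-nt sequences, 0 shared a run of 12 or more bases, on the same or on the opposite strand, and none shared such a run with a shorter listed sequence. In 2 pairs the sequences were within 6 mismatches of each other when aligned from base 1, and they are printed with the differing bases in capitals.
m1702-3p: tggatctggTagCcatgtcaaacc
m1831-5p: tggatctggCagTcatgtcaaacc
m0713-3p: ATtgacccggGgctggaaccAggc
m0726-3p: GCtgacccggAgctggaaccGggc

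Counted from the 5′ end, m1831-5p differs from m1702-3p by T10C and C13T, where the first letter is the base of m1702-3p. Similarly, m0726-3p differs from m0713-3p by A1G, T2C, G11A and A21G, where the first letter is the base of m0713-3p. The names place m1702-3p and m1831-5p on opposite arms, although their sequences run in the same direction. Both also had the same value in each tissue, 10.1 in shoot tips and 0 in leaves. Whether reads were allowed to match both sequences is not stated, so these values are uncertain.

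The arms were almost even. Names of 15 sequences were 5p and those of 13 were 3p, and no sequence carried both. Among the 23 higher in shoot tips 12 were 5p and 11 were 3p, and among the 5 higher in leaves 3 were 5p and 2 were 3p. For 0 of the 38 running numbers was the opposite arm or another sequence listed. A single name was listed for 26 sequences, while m0131-5p and m0071-3p had 6 names each, all on 1 arm and all with the same values. Several names for 1 sequence thus occurred in 2 of the 5 sequences higher in leaves and in 0 of the 23 higher in shoot tips. These are too few to read as a tissue contrast. Other sequences also had repeated names, with 50 names for the 27 numbered sequences of 20 to 23 nt and 105 for the 52 known ones.

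The 24-nt sequences were mostly shoot tip sequences. Of the 28, 23 were higher in shoot tips (82.1%) and 5 were higher in leaves (17.9%) in the authors' deposited table. All 107 listed sequences had an FDR below 0.05 (100%), since the table holds no others, and of these 42.1% were higher and 57.9% were lower in shoot tips. Among the 27 numbered sequences of 20 to 23 nt, 3 were higher in shoot tips and 24 were lower, and of the 52 known sequences 19 were higher and 33 lower. The median log2 ratio of shoot tips over leaves, with 1 added to both values, was 3.53 over the 28 sequences and -1.65 over all 107. These counts describe sequences the authors had already called different, and small RNAs of 24 nt outside the table were not analysed here.

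**Figure D1:**
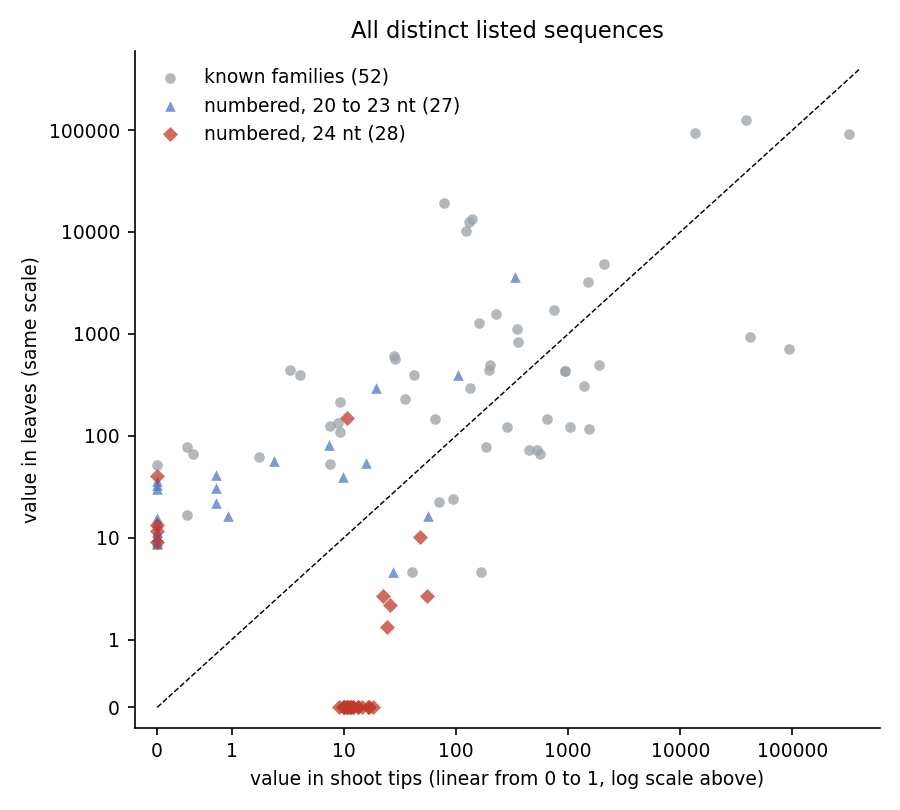
Value in leaves (vertical) against value in shoot tips (horizontal) for each of the 107 distinct listed sequences, both linear from 0 to 1 and logarithmic above, with the dashed line at equal values. Of the 28 numbered 24-nt sequences (diamonds), 23 lie under the line and 18 of these lie at 0 in leaves, while 24 of the 27 shorter numbered sequences (triangles) lie above it.

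Their abundance was low in both tissues. The higher of both tissue values had a median of 12.7 over the 28 sequences, against 27.3 for numbered sequences of 20 to 23 nt and 539.6 for known ones. Summed, the 28 made up 0.0782% of the listed value in shoot tips and 0.0611% in leaves. Their evidence was accordingly close to the threshold. In the authors' deposited table the median FDR of the 28 was 0.0236, against 0.00323 over all 107, and 8 of the 28 had an FDR below 0.01.

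Zeros dominated the comparison. In leaves 18 of the 28 sequences were listed at 0 (64.3%) and in shoot tips 4 (14.3%), while 6 were above 0 in both. Of the other 79 sequences, 1 was listed at 0 in leaves and 14 in shoot tips, 13 of these being numbered sequences of 20 to 23 nt. A zero at this abundance is a limited measurement. The pooled values could be resolved into whole reads of 2 libraries per tissue. Read numbers are given with the coarsest step sizes (values of 1 read) that fit, and finer steps give other numbers and other divisions between the libraries of a tissue. A count of 0 was placed at 3 reads over both libraries, its one-sided 95% upper limit, which is a value of up to 1.99 in leaves and up to 1.43 in shoot tips. These limits cover counting error of the zero only.

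**Figure D2:**
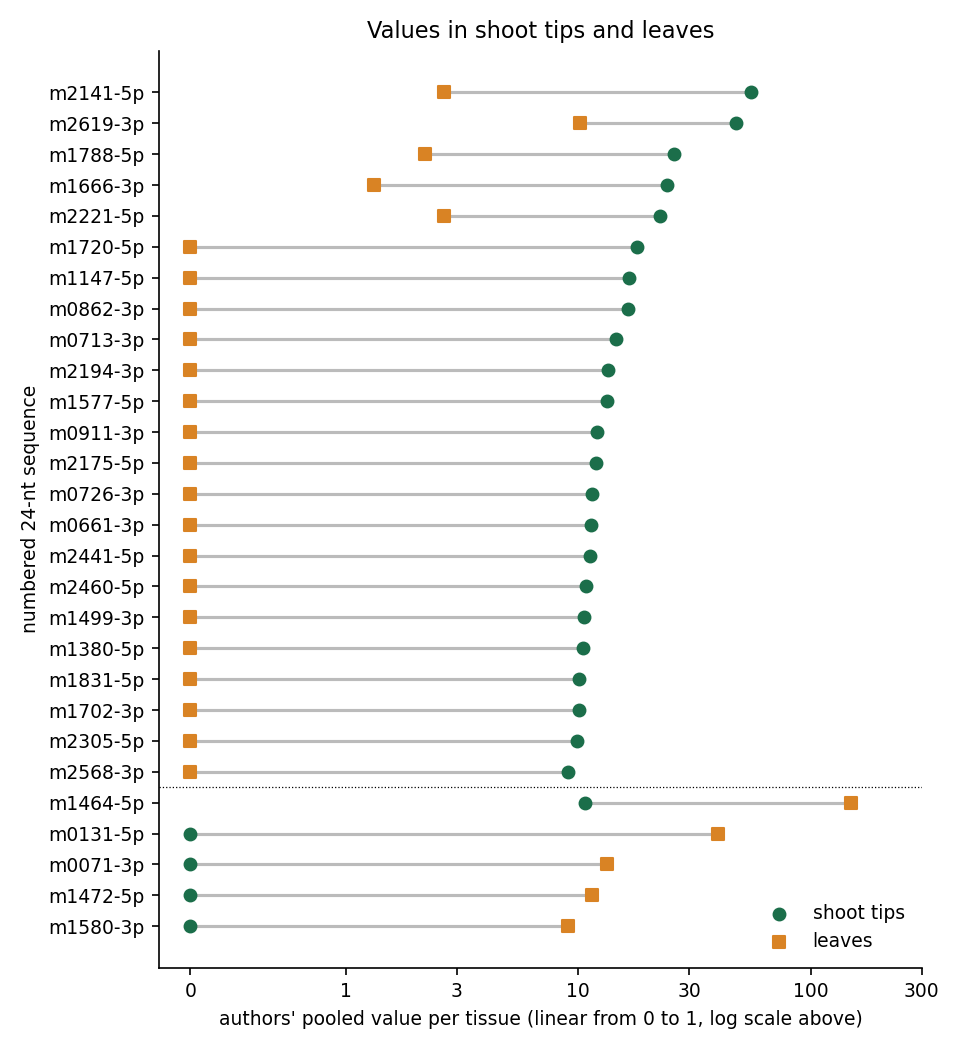
The authors' pooled value in shoot tips (circles) and leaves (squares) for each of the 28 numbered 24-nt sequences, on an axis that is linear from 0 to 1 and logarithmic above. Above the dotted line are the 23 sequences higher in shoot tips, with values of 9.09 to 55.3 there and 18 zeros in leaves, and under it the 5 higher in leaves.

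The most abundant of the 23 shoot tip sequences were the 5 that were also found in leaves. M2141-5p had 55.3 in shoot tips and 2.65 in leaves, with a log2 fold change of 4.23 and an FDR of 2.97e-05 in the authors' deposited table, the smallest FDR among the 23. The recovered reads were 46 and 85 in the 2 shoot tip libraries, called A and B here because their replicate numbers are not known, and 2 and 3 in leaf libraries A and B. The ratio of both tissue values was 20.9, with an exact 95% counting interval of 8.72 to 65.3. Both shoot tip libraries thus lay above both leaf libraries.

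M2619-3p had the smallest ratio between the tissues among the 6 sequences above 0 in both. Its values were 47.9 for shoot tips and 10.2 for leaves, with a log2 fold change of 2.16 and an FDR of 0.0235 in the authors' deposited table. Its reads were 66 and 42 in shoot tips and 6 and 14 in leaves, a ratio of 4.72 (exact 95% counting interval 2.91 to 8.03). Its leaf value was also the highest among the 23.

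The other 3 sequences found in both tissues had few leaf reads. M1788-5p had 25.7 in shoot tips, from 21 and 40 reads, and 2.21 in leaves, from 0 and 5 reads. M1666-3p had 24.1 in shoot tips, from 16 and 42 reads, and 1.32 in leaves, from 0 and 3 reads, a ratio of 18.2 with an exact 95% counting interval of 5.94 to 91.02. In M2221-5p, at 22.5 and 2.65, the reads were 10 and 45 in shoot tips and 2 and 3 in leaves. With the coarsest steps the leaf reads of M1788-5p and M1666-3p lay in 1 library, but other steps that fit place them in both. The authors' deposited table gave log2 fold changes of 3.23, 3.76 and 2.91 for these 3 sequences.

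The remaining 18 shoot tip sequences were all listed at 0 in leaves and lay in a narrow band, from 9.09 to 18.0 in shoot tips with a median of 11.4. They rested on 21 to 43 reads in shoot tips, with a median of 27. Against 3 reads in leaves they were at least 4.56-fold to at least 9.03-fold higher in shoot tips, bounds that carry no counting error of the shoot tip reads. The log2 fold changes of 4.63 to 5.70 that the authors' deposited table gives for them depend on how a zero was treated, which is not stated, and set no bound.

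Of these 18, m1720-5p was the most abundant. It had 18.0 in shoot tips, from 13 reads in library A and 30 in library B, and an FDR of 0.00415 in the authors' deposited table. At the lower end stood m2568-3p, with 9.09 from 10 and 11 reads and an FDR of 0.0493 in the authors' deposited table, the largest of all 28. Next to it were m2305-5p with 9.88 from 10 and 13 reads, m1702-3p and m1831-5p with 10.1 each from 3 and 22 reads, and m1380-5p with 10.5 from 8 and 17 reads. Each of these 5 sequences had reads in both shoot tip libraries and none in either leaf library. Neighbours in this order differ by a few reads at most, and no order is read from them.

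With the coarsest steps, both shoot tip libraries held every one of the 23 sequences. Library B gave the larger part of the pooled value for 20 of them and library A for 3, and for 11 the part from B was at least 2 times that from A. The parts were most unequal for m2175-5p, with 2 reads in library A and 28 in B. Under the same steps known sequences went the other way, with the larger part in library A for 26 of 30 whose reads were recovered. Numbered sequences of 20 to 23 nt were split, with 7 of 13. For the 5 sequences with leaf reads, the smaller shoot tip part still exceeded the larger leaf part. In all 9 pairs of step sizes that give the same pooled values each of the 23 had reads in both libraries. The number with parts at least 2 times apart ranged from 5 to 22 over these pairs. Which library gave the larger part also depends on the steps. How unequal the libraries were, and the contrast with known sequences, are therefore uncertain. Without library B and against 3 reads in leaves, 19 of the 23 were at least 2-fold higher in shoot tips. The other 4 were m1499-3p at 1.91 times, m1702-3p and m1831-5p at 1.43 times and m2175-5p at 0.956 times that leaf limit.

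**Figure D3:**
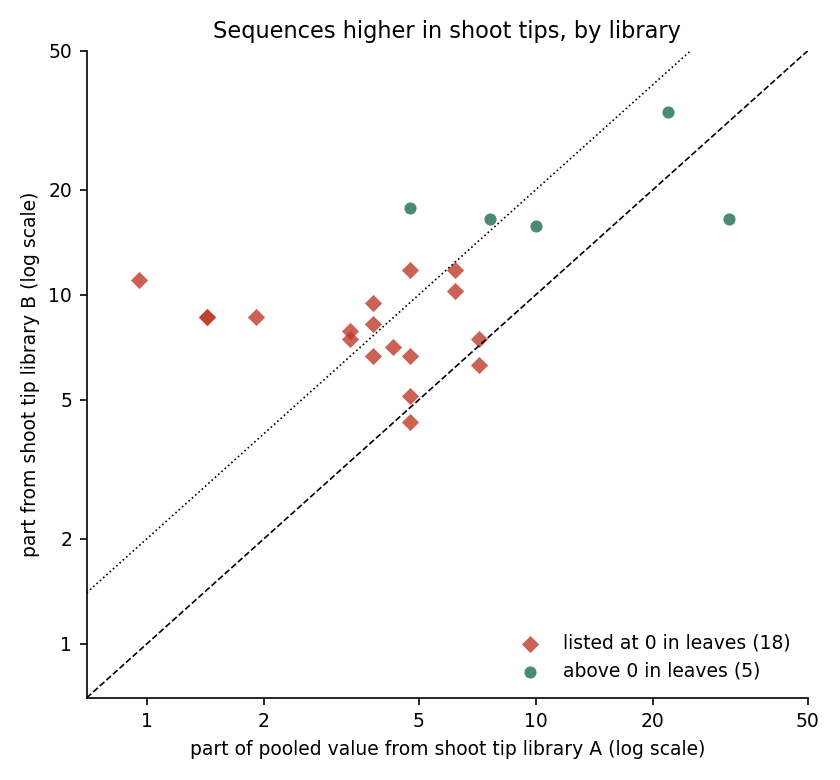
Part of the pooled shoot tip value contributed by library B (vertical) against that by library A (horizontal), both on a log scale, for the 23 sequences higher in shoot tips, as resolved with the coarsest steps. The dashed line marks equal parts and the dotted line a part from B 2 times that from A. In all, 20 points lie above the dashed line, and m2175-5p is the point farthest to the left.

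The 5 sequences higher in leaves were more varied in value. M1464-5p was the most abundant of all 28, with 10.7 for shoot tips against 148 for leaves, a log2 fold change of -3.74 and an FDR of 2.33e-10 in the authors' deposited table, the smallest FDR of all 28. It rested on 95 and 193 reads in leaves and 11 and 14 in shoot tips, a ratio of 13.8 in favour of leaves (exact 95% counting interval 9.16 to 21.7). It was the one leaf sequence of the 5 with any read in shoot tips.

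M0131-5p, listed under 6 names, had 0 in shoot tips and 40.0 in leaves, with an FDR of 1.81e-05 in the authors' deposited table. Its leaf reads were 35 and 38, and leaves were at least 28.02-fold higher against 3 reads in shoot tips. M0071-3p, also under 6 names, had 0 and 13.3, from 12 and 12 leaf reads, at least 9.29-fold higher in leaves.

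M1472-5p had 0 in shoot tips and 11.5 in leaves, from 8 and 14 reads, and was at least 8.05-fold higher in leaves. M1580-3p had 0 and 9.06, from 7 and 10 reads, at least 6.35-fold higher in leaves. The bounds given here and for m0131-5p and m0071-3p carry no counting error of the leaf reads. The FDR of these last 3 sequences ran from 0.00887 to 0.0362 in the authors' deposited table. All 5 sequences had reads in both leaf libraries under each of the 15 pairs of leaf steps that fit. The number with leaf parts at least 2 times apart ranged from 0 to 5 over these pairs, so the balance of the leaf libraries is uncertain too.

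The predicted targets were many, scattered and rarely shared. A predicted target is a transcript with a matching site found by a program, and no transcript was measured here. The 28 sequences had 2455 distinct predicted loci among the 10305 of the table, with 62 to 138 loci per sequence and a median of 90.5. Numbered sequences of 20 to 23 nt had a median of 146 and known ones a median of 154. The most loci were predicted for m1788-5p (138), m2194-3p and m2460-5p (121 each), m2619-3p (118), and m1720-5p and m2568-3p (115 each). The fewest were predicted for m2441-5p (62), m0071-3p (68), m1499-3p (69), m0713-3p (70), and m0131-5p and m2221-5p (72 each). The number of loci thus did not separate shoot tip from leaf sequences, which had medians of 91 and 85 and overlapping ranges.

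Of the 2455 loci, 2292 were predicted for 1 of the 28 sequences (93.4%), 153 for 2, 9 for 3 and 1 for 4. The 27 numbered sequences of 20 to 23 nt, with a median of 146 loci, had 3450 distinct loci. Rare sharing is therefore not read as a trait of the 24-nt sequences. The 23 shoot tip sequences had 2066 loci and the 5 leaf sequences 428, with 39 in both sets. Of the 2455, 737 were also predicted for other listed sequences, 30.02% of the loci of the 24-nt sequences and 8.58% of the 8587 loci of the others. Related sequences had the largest overlaps. M1702-3p and m1831-5p shared 51 loci, 47.7% and 46.8% of their lists, and m0713-3p and m0726-3p shared 17, or 24.3% and 21.8%. M0862-3p and m2194-3p shared 6 loci (7.69% and 4.96%), and 280 of the 378 pairs shared none.

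The 10 loci predicted for at least 3 of the sequences mostly owed this to a related pair. POPTR_0014s04060, with no description, was predicted for m0661-3p, m1702-3p, m1720-5p and m1831-5p. The pair m1702-3p and m1831-5p shared POPTR_0001s06880, described as GPI mannosyltransferase 1, with m2568-3p. It shared POPTR_0009s15910, T-complex protein 1 subunit eta, a part of a chaperonin that folds cytoskeletal proteins, with the leaf sequence m0131-5p, and POPTR_0015s09510, a C2 and GRAM domain protein, with m0911-3p. The pair m0713-3p and m0726-3p shared POPTR_0017s01380, REVEILLE 1, a MYB-like factor known in Arabidopsis to link the clock with auxin, with the leaf sequence m1580-3p. The same pair shared POPTR_0004s06730 with m1666-3p and POPTR_0017s03370 with m0131-5p, both without description. Outside these pairs, POPTR_0006s00860 (Zinc transporter 8) was predicted for m1666-3p, m2175-5p and m2194-3p. POPTR_0008s11730, a scaffold subunit of protein phosphatase 2A, was predicted for m0071-3p, m0862-3p and m2194-3p, and POPTR_0017s13110, an ABC transporter, for m0071-3p, m1147-5p and m1788-5p.

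Loci with a transposon-like description were few. The list took in transposases, transposons, viral-type polyproteins, BED zinc finger proteins of the hAT type, and FAR1-type factors, which in Arabidopsis derive from Mutator-like transposases and act in light signalling. It held 17 of the 2455 loci (0.692%), against 27 of the 8587 loci of the other sequences (0.314%). Among loci with a description the shares were 0.882% and 0.394%. These shares were not tested, since loci of related sequences are not independent, and 10 of the 17 loci belonged to m0661-3p and m2175-5p. Nothing in the list was a retrotransposon or a viral-type polyprotein.

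M0661-3p had 7 of the 17 transposon-like loci among its 84. These were 3 loci described as putative AC transposase (POPTR_0001s39120, POPTR_0008s21720 and POPTR_0013s07990), the protein of the maize Activator element, and 4 described as RICESLEEPER 1 or 2, domesticated hAT transposases of rice. M0661-3p itself had 11.4 in shoot tips, from 9 and 18 reads, and 0 in leaves. M2175-5p had 3 loci described as DAYSLEEPER, a domesticated hAT transposase essential for development in Arabidopsis (POPTR_0004s12760, POPTR_0004s12810 and POPTR_0018s12680). Its value was 11.97 in shoot tips and 0 in leaves. M2141-5p, the most abundant shoot tip sequence, had 1 locus described as RICESLEEPER 4 (POPTR_0011s02830).

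The 6 FAR1-type loci belonged to 6 sequences. M0713-3p and m0911-3p each had a locus described as FAR-RED IMPAIRED RESPONSE 1 (POPTR_0016s01960 and POPTR_0006s02140). M1577-5p and m2460-5p each had a FAR1-RELATED SEQUENCE 4 locus (POPTR_0003s22300 and POPTR_0001s05510), and m2305-5p had a FAR1-RELATED SEQUENCE 6 locus (POPTR_0006s06200). The leaf sequence m1464-5p had a FAR1-RELATED SEQUENCE 5 locus (POPTR_0015s13560), the one transposon-like locus of the 5 leaf sequences. Of these 6 sequences, m0713-3p, m0911-3p, m1577-5p, m2305-5p and m2460-5p had shoot tip values between 9.88 and 14.6 and a leaf value of 0. Altogether 9 of the 28 sequences had such a locus and 19 had none.

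A wider reading adds the 15 loci described as Putative ribonuclease H protein At1g65750, named for an enzyme activity that retroelements also carry. They were added after the descriptions had been seen, and bring the count to 32 loci (1.30%), against 81 (0.943%) for the other sequences. They were predicted for 9 sequences, with 7 for m2175-5p and 4 for m1788-5p. The distance between the 24-nt sequences and the others was thus smaller with these loci included.

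**Figure D4:**
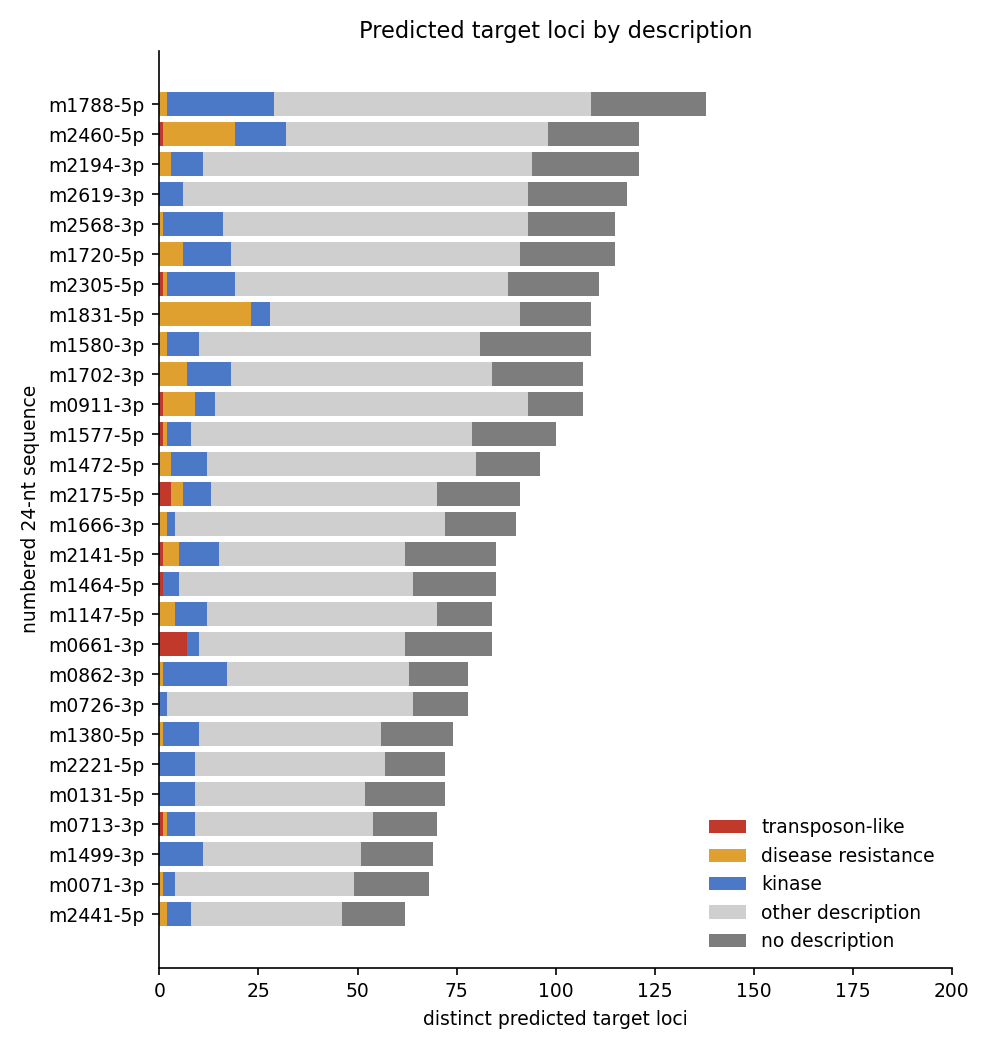
Number of distinct predicted target loci (horizontal, from 0) for each of the 28 numbered 24-nt sequences, divided by description. The bars run from 62 loci in m2441-5p to 138 in m1788-5p, transposon-like loci are most numerous in m0661-3p with 7, and disease resistance loci in m1831-5p with 23.

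The other descriptions were spread over the proteome. Shares for kinases and disease resistance proteins were close to those of the other sequences, while several other lists were further apart. None of these differences was tested. Descriptions with the word kinase, regulatory subunits of kinases included, formed the largest list of described loci. It held 233 loci (9.49%, against 9.48% for the other sequences), and each of the 28 sequences had at least 1. Transcription factors, a list that takes in the BED zinc finger loci above, made up 103 loci (4.20% against 4.82%), transporters 92 (3.75% against 3.06%), disease resistance proteins 86 (3.50% against 3.49%), F-box proteins and ubiquitin ligases 61 (2.48% against 2.11%) and pentatricopeptide repeat proteins 56 (2.28% against 3.24%). No description was given for 528 loci (21.5% against 20.2%). Some rarer lists, each matched on words in the description, had lower shares than in the other sequences. These included ribosomal and translation proteins (19 loci, 0.774% against 1.08%) and descriptions with the words cytochrome P450 (12, 0.489% against 0.932%). Descriptions with heat shock, chaperone or DnaJ were also lower (9, 0.367% against 0.641%). Enzymes and chaperonins described in other words, such as T-complex protein 1, were not counted. The transposon-like list above and the photosynthesis list below had higher shares.

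Single sequences departed from this spread. Disease resistance loci, which encode intracellular receptors for pathogen proteins, made up 23 of the 109 loci of m1831-5p (21.1%), among them 10 described as RPS6 and 10 as TMV resistance protein N. Its near-copy m1702-3p, with 2 different bases, had 7 of 107 (6.54%). M2460-5p had 18 of 121 (14.9%), 9 of them described as At4g27220, and m0911-3p had 8 of 107, of which 7 were RPP13-like. Disease resistance loci occurred in 21 of the 28 lists. Receptor-like kinases of the G-type lectin class were frequent for m1788-5p, with 7 loci described as At1g11330 and 5 as RKS1, and kinases of all kinds made up 27 of its 138 loci (19.6%). In M2221-5p, 6 of 72 loci were described as Ammonium transporter 3 member 1. The leaf sequence m1580-3p had 6 loci described as the N-acetyltransferase MAK3, and m1464-5p had 4 described as Premnaspirodiene oxygenase, an enzyme of sesquiterpene synthesis.

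A word list for small RNA, DNA methylation and histone methyltransferase proteins held 8 loci (0.326%, against 0.454% for the other sequences). They included POPTR_0016s02480, described as argonaute 4A, of the class that binds 24-nt small RNAs, which was predicted for m2194-3p. A pair of loci described as argonaute 5 (POPTR_0001s22120 and POPTR_0009s00660) was predicted for m1831-5p. POPTR_0019s15030, DDM1, a chromatin remodeller needed for transposon methylation in Arabidopsis, was predicted for m2141-5p. The largest subunit of RNA polymerase V (POPTR_0001s06460), whose transcripts recruit AGO4 in Arabidopsis, was predicted for the leaf sequence m1464-5p. The remaining 3 loci were histone methyltransferases, described as ATXR2 (m1147-5p), ASHH2 (m1464-5p) and ASHR3 (m1472-5p). Loci described as Increased DNA methylation 1 were outside the list, 4 for the 24-nt sequences and 5 for the others.

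Meristem genes numbered 5 (0.204% against 0.431%). They were CLAVATA1 (POPTR_0005s26300, m0862-3p), the receptor kinase that limits the stem cell population in Arabidopsis, a knotted-1-like homeobox protein (POPTR_0013s01000, m1702-3p), TCP19 (POPTR_0015s13660, m1702-3p and m1831-5p), Growth-regulating factor 1 (POPTR_0014s00780, m0911-3p) and Growth-regulating factor 9 (POPTR_0014s06750, for the leaf sequence m0131-5p). A photosynthesis list, matched on the words photosystem, chlorophyll or ribulose and so taking in pigment enzymes, also held 5 loci (0.204% against 0.186%). Of these, 4 belonged to sequences higher in shoot tips, which had 2066 of the 2455 loci. Those were 2 chlorophyll a-b binding proteins, an apoprotein of photosystem I and a chlorophyll b reductase, predicted for m1666-3p, m2619-3p and m1577-5p, while the protochlorophyllide reductase was predicted for m1464-5p.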

How the data were processed

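Shoot tips and surrounding leaves were represented by 2 small RNA libraries each, prepared with Illumina protocols per the labels. The authors' deposited table holds for each name a normalized signal per tissue, a log2 fold change and an FDR, an adjusted p-value. How reads were trimmed, mapped, called, scaled, matched to targets and tested is not stated in these sources. The table gives no value per library, so the planned count test was replaced by the authors' FDR below 0.05, and no test was added. Members, lists and named items were chosen with earlier results of these data known. The rule for named items took all leaf sequences, those above 0 in both tissues, the 5 highest and lowest shoot tip values, the 5 largest and smallest target sets, and those with transposon-like loci. Other sequences and loci were named after their values were seen.

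Lines with the same sequence and locus were counted once, 59 of 3388 lines being exact repeats. Lists were matched on the descriptions. The loci carry POPTR identifiers, which name genes of P. trichocarpa, and 0 of the 2455 matched the reference gene table of P. tomentosa. Reads were recovered by writing each value up to 250 as whole multiples of 2 steps. The coarsest steps, 0.476 and 0.394 for shoot tips and 0.664 and 0.441 for leaves, solved 72 of 72 and 70 of 70 values, and finer steps, searched from 0.15 to 1.5, also gave these values. The depth of each library is unknown. Counting intervals are conditional binomial (Clopper-Pearson) and cover no error beyond counting. The versions were Python 3.11.15, numpy 2.4.6, pandas 2.3.3, scipy 1.17.1 and matplotlib 3.10.9.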

Additional observations from a re-analysis of the deposited data

How the results depend on the processing

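Against 23 sequences higher and 5 lower in shoot tips, an FDR below 0.01 left 5 and 3, a value of at least 20 in the higher tissue left 5 and 2, and counting names gave 23 and 15, with 14 names listed at 0 in shoot tips against 4 sequences. A log2 ratio of at least 2 with 1 added to both values kept 23 and 5. The median log2 ratio of 3.53 became 4.43 with a pseudocount of 0.5 and 1.71 with 5, which follows from the zeros. Leaving out each recovered library in turn, an alternative chosen after the data were seen, left 19 to 23 higher and 5 to 5 lower sequences at least 2-fold apart, with a tissue at 0 placed at 3 reads, and the 19 were found without shoot tip library B. Over the 9 shoot tip pairs of steps the smaller part alone left 17 to 22 of the 23, and over the 15 leaf pairs 5 of the 5. Sequences listed at 0 in leaves had 1587 of the 2455 loci. The 17 transposon-like loci became 3 with transposases and transposons alone (0.122%, against 8 loci or 0.0932% for the other sequences), all predicted for m0661-3p. In alternatives chosen after the data were seen they became 32 with ribonuclease H proteins, 10 without m0661-3p and 7 without m0661-3p and m2175-5p. No shares were calculated without m0661-3p and m2175-5p. The higher share of transposon-like loci (0.692% against 0.314%) is therefore not shown to hold beyond them. No paired analysis was possible because both libraries of a tissue are merged in 1 column. Normalizations and filters per library and target identifiers with a transcript suffix were not run, since the table holds neither. Each of the 22 zeros has a one-sided 95% upper limit of 3 reads, so a low level in the other tissue was not detectable.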
